A study of Mus musculus with 5 samples.

Results

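The genes described here encode brakes on mitogen-activated protein (MAP) kinase signalling. They are the dual-specificity phosphatases *Dusp1*, *Dusp4*, *Dusp5*, *Dusp6*, *Dusp8* and *Dusp14*, the Sprouty genes *Spry2* and *Spry4*, and the Sprouty-related genes *Spred1* and *Spred2*. They were found by name, through the Ensembl identifier of each row of the count tables. The rule uses no measured value, but the set was drawn up with earlier results of these data known. They make up 10 of the 55411 genes of the tables, and all 10 were found.

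MAP kinases (ERK, JNK and p38) are switched on by phosphorylation of a threonine and a tyrosine in their activation loop, and a dual-specificity phosphatase switches them off by removing both phosphates. Sprouty and Spred proteins act further up, at the membrane, where they limit the activation of Ras and Raf by growth factor receptors. Several of these brakes are themselves transcribed in response to MAP kinase activity or to calcium, so that the signal that drives them is the one they reduce. In an olfactory sensory neuron, an odorant raises cAMP and calcium, and both can feed into the ERK cascade.

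RNA was sequenced from neurons that transcribe the odorant receptor gene *Olfr151* (M71), whose receptor recognizes acetophenone. The mice were males aged 7 weeks, homozygous for a targeted *Olfr151* allele (Olfr151tm26Mom) that also drives a tau-GFP reporter, an allele carried in both conditions. Isolated mice were exposed for 5 h to 5% acetophenone in DMSO (exposed pools 1 and 3) or to DMSO alone (control pools 1, 2 and 3). Exposed pool 2 is not analysed here. Each library came from GFP-positive cells sorted from a pool of 4 mice, with 200 cells per pool by 1 label and 400 by another. Because the marker is the receptor allele itself, the sort selected on *Olfr151* transcription.

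Library totals lay between 42780403 and 49527380 counts, so that 3 counts, taken here as the limit of detection, corresponded to 0.0607 to 0.0704 CPM (counts scaled to the size of the library). The 10 mature olfactory sensory neuron markers were all measured, and summed to between 59925 and 63915 CPM in control pools and to 51638 and 52512 CPM in exposed pools. Markers of other cells were also present. The 9 sustentacular and gland markers summed to between 119 and 380 CPM over the 5 libraries, and 10 blood, endothelial and glial markers to 352, 115 and 20.1 CPM in control pools and 24.5 and 13.2 CPM in exposed pools. Of the endothelial markers, *Pecam1* had between 145 and 332 counts and *Cdh5* had none in any library. The 14 immune markers summed to 434, 37.1 and 24.1 CPM in control pools 1, 2 and 3 and to 508 and 85.0 CPM in exposed pools 1 and 3. By this sum, control pool 1 and exposed pool 1 stood apart from the other 3 libraries. All statements on the spread refer to pools of separate animals.

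After DMSO alone, the 10 genes covered a wide range of levels. These are levels after tissue dissociation and sorting, and the part of dissociation in them was not tested. Scaled for exon length and library size (TPM), *Dusp14* led in the control pools with 785 ± 81.3 TPM (SD, n = 3). This gene, ENSMUSG00000018648 at chr11:84048041-84069261 on the minus strand, encodes a small atypical phosphatase without the kinase-binding domain of the larger family members. *Dusp1* (ENSMUSG00000024190, chr17:26505590-26562128, minus strand), the classical immediate early phosphatase of the nucleus, followed with 330 ± 61.7 TPM. *Dusp5* (ENSMUSG00000034765, chr19:53529109-53542431, plus strand), a nuclear phosphatase specific for ERK, stood at 82.7 ± 57.8 TPM. *Dusp8* (ENSMUSG00000037887, chr7:142079490-142095843, minus strand), a phosphatase of JNK and p38, stood at 75.1 ± 8.51 TPM and could not be separated from *Dusp5* by the values of the pools. All coordinates are those of the deposited tables, on GRCm38.

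The remaining 6 genes were low in control pools. *Dusp6* (ENSMUSG00000019960, chr10:99263231-99267489, plus strand), the cytoplasmic phosphatase of ERK, and *Spred2* (ENSMUSG00000045671, chr11:19924375-20024026, plus strand) had 14.1 ± 5.62 and 12.7 ± 3.70 TPM, with overlapping pools. *Spred1* (ENSMUSG00000027351, chr2:117121374-117182279, plus strand) had 3.49 ± 1.6 TPM. *Dusp4* (ENSMUSG00000031530, chr8:34807297-34819894, plus strand), an inducible nuclear phosphatase of ERK and JNK, had 2.36 ± 1.48 TPM and ranked 8 of 10. *Spry2* (ENSMUSG00000022114, chr14:105891947-105896819, minus strand) and *Spry4* (ENSMUSG00000024427) came last, with 1.99 ± 1.53 and 0.623 ± 1.08 TPM. From *Spred1* downwards, each gene overlapped its neighbour in the order, while *Spred1* and *Spry4* did not overlap each other.

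**Figure D1:**
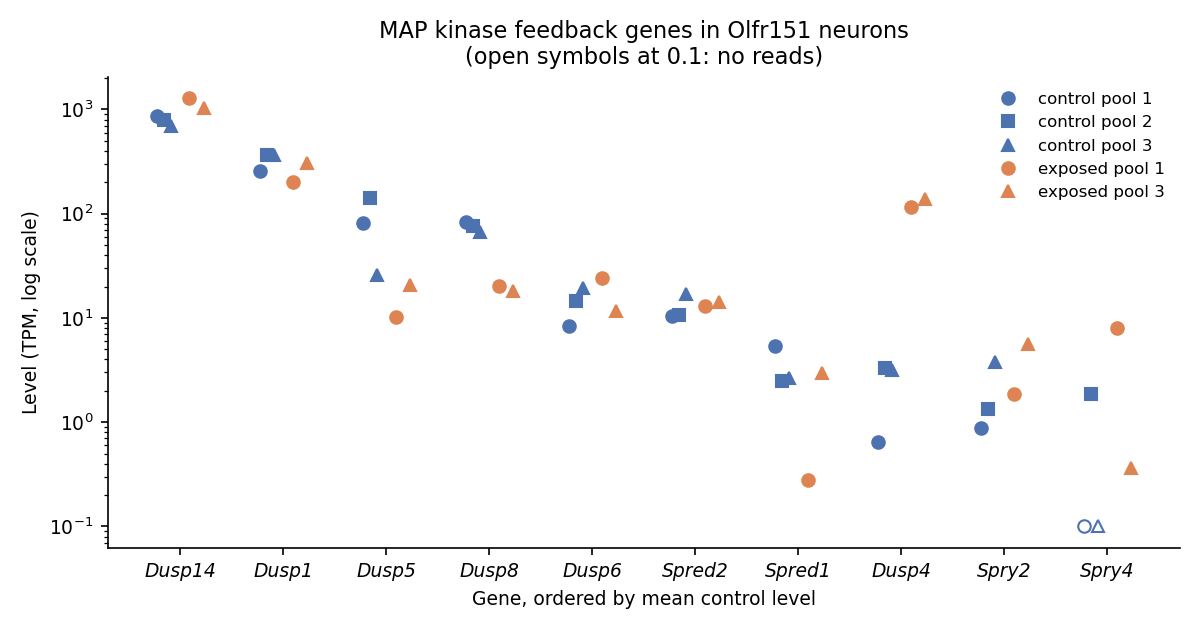
Level of each of the 10 genes in each of the 5 libraries, in TPM on a logarithmic axis, with genes ordered by their mean in the control pools (blue) and exposed pools shown beside them (orange); open symbols mark libraries without a read. *Dusp14* and *Dusp1* lie on top in both conditions, and *Dusp4* goes from between 0.65 and 3.27 TPM in control pools to 116 and 138 TPM in exposed pools.

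In the exposed pools the order was different. *Dusp14* with 1161 ± 168 TPM (SD, n = 2) and *Dusp1* with 254 ± 76.8 TPM still led, but *Dusp4* came directly after them, in rank 3, with 127 ± 15.98 TPM. It was separated from both of its neighbours in every exposed pool. *Dusp8*, *Dusp6*, *Dusp5* and *Spred2* followed between 19.2 and 13.7 TPM, each overlapping the next. *Spry4*, *Spry2* and *Spred1* were lowest, between 4.21 and 1.63 TPM, and could not be ordered. The summed level of the 10 genes was 1309, 1409 and 1205 TPM in control pools 1, 2 and 3, and 1672 and 1563 TPM in exposed pools 1 and 3. *Dusp14* alone made up 56.4 to 65.8% of this sum in control pools and 76.5 and 66.7% in exposed pools. *Dusp4* contributed between 0.0496 and 0.261% in control pools, against 6.91 and 8.84% in exposed pools.

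The comparison of exposed with control pools asks which of these brakes are transcribed differently after 5 h of odorant. *Dusp4* and *Dusp14* were higher in the exposed pools, *Dusp8* was lower, and no change was called in *Dusp1*, *Dusp5*, *Dusp6*, *Spred1* or *Spred2*. Genes were tested if every library of at least 1 condition had 142 counts or more, and were called with edgeR's quasi-likelihood test at an adjusted p under 0.1 (Benjamini-Hochberg, over all 10035 genes tested) and an absolute log2 fold change above 0.5. Of the 10 genes, 8 passed the filter, *Dusp4* through the exposed pools only and *Spred1* through the control pools only, while *Spry2* and *Spry4* did not pass. The 2 genes called higher of 8 tested stand against 3.41% of all genes tested called higher, and the 1 called lower against 1.85% called lower. *Dusp4* is 1 of the 2 called higher, so that their count is no support for a difference of the set. In 4 of the 8 genes both exposed pools lay outside the range of the control pools, which was the case for 40.0% of all genes tested, so that this count is near the background. In bulk libraries, fewer cells of a type and less RNA per cell cannot be told apart.

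*Dusp4* showed the largest difference of the 8. After DMSO, its counts were 24 in pool 1, 122 in pool 2 and 115 in pool 3, and after acetophenone they were 4567 in pool 1 and 5014 in pool 3. As CPM with TMM scaling, a correction for library composition, these values were 0.55, 2.47 and 2.49 after DMSO against 106 and 120.0 after acetophenone. The conditions were far apart, and the exposed pools were close to each other. The mean rose from 1.84 ± 1.11 CPM (SD, n = 3) to 113 ± 9.55 CPM (n = 2), a ratio of 61.7. The log2 fold change was 5.94 (SE 0.65) with an adjusted p of 0.00991 in edgeR's quasi-likelihood test, and ranked 21 from the top among the 10035 genes tested. It was called whichever library was left out (log2 fold change 5.52 to 6.24, adjusted p 0.00165 to 0.0713). Since the gene entered the test through the exposed pools, where it is high, its passing the filter is no support for the difference.

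Some immune markers were also higher in the exposed pools, and others were not. *Fcer1g*, a subunit of immune receptors, was called higher (log2 fold change 2.63, SE 0.61, adjusted p = 0.0798). It was the only 1 called of 7 tested in its list, against 3.41% of all genes called higher. *Ptprc*, the pan-leukocyte marker CD45, had 0, 54 and 1 counts after DMSO and 542 and 517 after acetophenone without being called (adjusted p = 0.191). *Tyrobp*, an adaptor of myeloid receptors, had 12.4, 2.49 and 1.45 CPM after DMSO and 23.9 and 19.1 CPM after acetophenone (adjusted p = 0.296). In 4 of the 7 markers, these 3 among them, both exposed pools lay above every control pool, as they did for *Dusp4*. Over all genes tested, 40.0% lay outside the control range, a share that counts both directions, while 0 of the 7 markers lay below it. Of the 7, 5 passed the filter through the exposed pools only, these 3 among them, so that this count is no support for a difference. *Cd74* and *Lyz2*, the most abundant, were high in control pool 1 and exposed pool 1. The other 7 markers were not tested and overlapped between conditions. Their means were lower in exposed pools for *Cx3cr1* (0.07 against 2.44 CPM) and *C1qb* (1.06 against 5.13 CPM), and higher for *Cybb* (7.37 against 1.26 CPM). Without control pool 1 and exposed pool 1, a comparison chosen after the marker sums were seen, the log2 fold change of *Dusp4* was 5.59. Only exposed pool 3 then stood for its condition. *Ptprc* and *Tyrobp* were about as high there as in exposed pool 1, so that the comparison did not remove their signal. The part of these cells in the level of *Dusp4* was not tested.

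*Dusp14*, the most abundant of the 10 genes, rose less. Control counts of 22599, 21035 and 18110 compared with exposed counts of 35900 and 26862, which is 519.7, 426 and 392 CPM against 837 and 643 CPM. Both exposed pools lay above all control pools, with exposed pool 1 the higher of the pair. The mean went from 446 ± 66.2 to 740.0 ± 137 CPM, a ratio of 1.66, and the log2 fold change was 0.73 (SE 0.18, adjusted p = 0.0945). This call was kept without control pool 1 (adjusted p = 0.0634) and was lost without any 1 of the other libraries. The adjusted p was 0.222 without control pool 2, 0.145 without control pool 3, 0.505 without exposed pool 1 and 0.149 without exposed pool 3.

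*Dusp8* went the other way. Its counts were 5451, 5063 and 4284 after DMSO (pools 1, 2 and 3) and 1410 and 1180 after acetophenone (pools 1 and 3). In CPM these were 125, 103 and 92.7 against 32.9 and 28.2, so that the highest exposed pool was well below the lowest control pool. The mean fell from 107 ± 16.8 to 30.6 ± 3.28 CPM, which makes the control level 3.50 times that of the exposed pools. The log2 fold change was -1.81 (SE 0.23, adjusted p = 0.0128). Left out singly, the control pools did not change this call, whereas it was narrowly lost without exposed pool 1 (adjusted p = 0.105) or exposed pool 3 (adjusted p = 0.103), where 1 exposed library remained. The sum of the mature neuron markers was also lower in the exposed pools. Of these 10 markers, 3 were called lower, against 1.85% of all genes tested. They were *Rtp1*, *Cnga2* and *Cnga4*, with log2 fold changes of -1.07, -0.83 and -0.53. *Omp*, which defines these neurons, was not called (log2 fold change -0.32, SE 0.10, adjusted p = 0.165). The 6 immature neuron markers summed to between 492 and 592 CPM in control pools and to 547 and 507 CPM in exposed pools. Of these 6, 3 were above and 3 below the control range in both exposed pools, while 40.0% of all genes tested lay outside it. *Gap43*, a growth cone protein, was the only 1 called, and was higher (log2 fold change 0.94, adjusted p = 0.0891), against 3.41% of all genes called higher. The part of neuron maturity in the level of *Dusp8* was not tested.

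*Dusp5* had the most negative estimate but did not pass the threshold. The 3 control libraries held 2709, 4753 and 850 counts and the 2 exposed libraries 363 and 682, or 62.3, 96.3 and 18.4 CPM against 8.46 and 16.3 CPM. The conditions did not overlap, but control pool 3 was much closer to the exposed pools than to the other control pools. The means of 59.0 ± 39.0 and 12.4 ± 5.56 CPM gave a log2 fold change of -2.25 (SE 0.74, adjusted p = 0.181). Without control pool 3 the gene was called, with a log2 fold change of -2.65 and an adjusted p of 0.0261. Reads were counted without strand, and 22.1% of the exon bases of *Dusp5* are shared with an antisense gene, AC137853.2, which itself had between 7 and 77 counts.

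**Figure D2:**
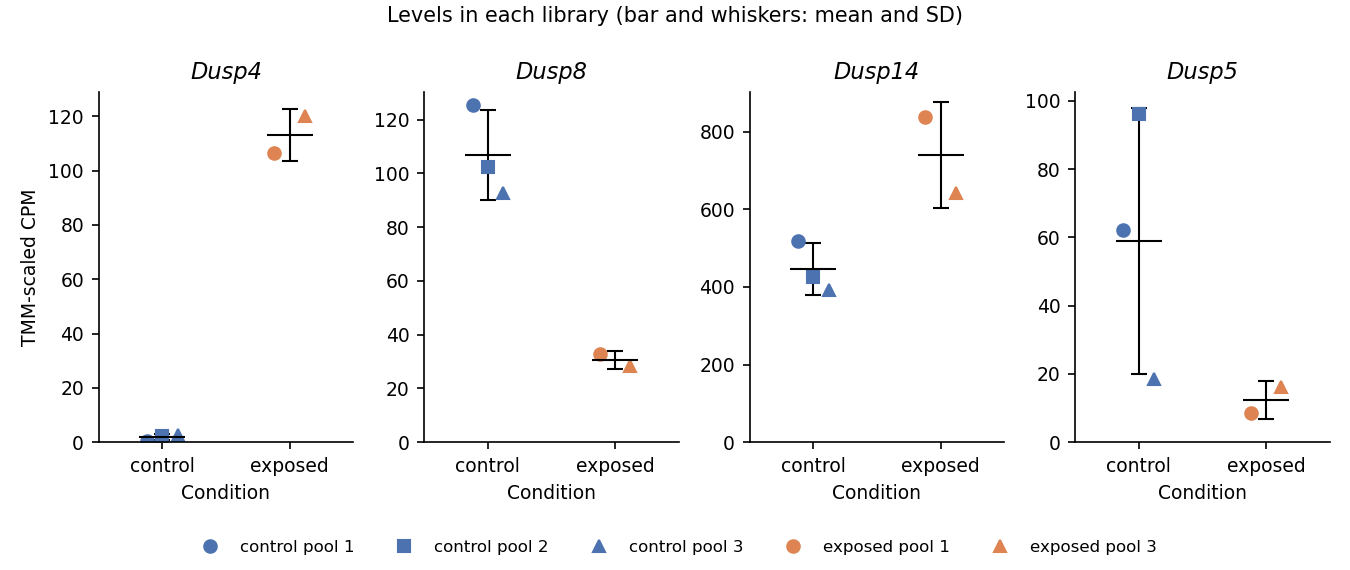
Level of *Dusp4*, *Dusp8*, *Dusp14* and *Dusp5* in each library in CPM after TMM scaling, on linear axes that start at 0 and differ between panels; horizontal bars and whiskers are the mean and SD of 3 control or 2 exposed pools. In these 4 genes no exposed pool falls within the control range, with *Dusp4* and *Dusp14* above and *Dusp8* and *Dusp5* below, and *Dusp5* in control pool 3 (18.4 CPM) lies next to exposed pool 3 (16.3 CPM).

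*Dusp1* was not called in spite of its immediate early behaviour in many cells. Levels were 266, 331 and 351 CPM after DMSO (pools 1, 2 and 3) and 222 and 324 CPM after acetophenone (pools 1 and 3). Exposed pool 1 was the lowest library, and exposed pool 3 lay within the control range. The log2 fold change was -0.21 (SE 0.21, adjusted p = 0.637), an estimate that changed sign without exposed pool 1 (0.023). The part of dissociation in the *Dusp1* level of either condition was not tested. The locus contains 11 exon bases shared with *Ergic1* on the opposite strand, 0.332% of the exon length of *Dusp1*.

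*Dusp6*, which ERK activity induces in many tissues, had 8.05, 12.4 and 17.6 CPM after DMSO and, after acetophenone, 25.4 CPM in pool 1 and 11.7 CPM in pool 3. The exposed pools lay on either side of the control mean of 12.7 CPM, and the control pools themselves differed widely. The log2 fold change was 0.54 (SE 0.50, adjusted p = 0.602), and it became -0.14 without exposed pool 1.

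The Spred genes, whose products bring the Ras-inactivating protein neurofibromin to the membrane, were measured at low levels. *Spred2* had 14.9, 13.6 and 22.5 CPM after DMSO against 20.3 and 20.9 CPM after acetophenone, with a log2 fold change of 0.28 (SE 0.35, adjusted p = 0.718). Both exposed pools fell inside the control range. *Spred1* had 11.2, 4.64 and 5.19 CPM after DMSO, and 0.63 CPM in exposed pool 1 against 6.41 CPM in exposed pool 3. Only exposed pool 1, with 27 counts, was below the controls, and exposed pool 3, with 268 counts, was not. The log2 fold change of -1.0 (SE 0.97, adjusted p = 0.629) thus rested on exposed pool 1, without which it was -0.14.

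The Sprouty genes were too low to pass the filter. *Spry2*, an inhibitor of receptor tyrosine kinase signalling, had 25, 38 and 104 counts after DMSO and 56 and 154 after acetophenone, with overlapping values. *Spry4* was seen in 1 control library, pool 2 with 121 counts, and in both exposed libraries, with 552 counts in pool 1 and 23 in pool 3. Exposed pool 1 was the highest for *Spry4* and control pool 2 exceeded exposed pool 3, so that presence in a library did not follow the condition. The means were 1.198 ± 0.916 and 2.50 ± 1.68 CPM for *Spry2* and 0.817 ± 1.41 and 6.71 ± 8.71 CPM for *Spry4*, so that in both genes the SD of the exposed pools exceeded the difference between conditions.

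**Figure D3:**
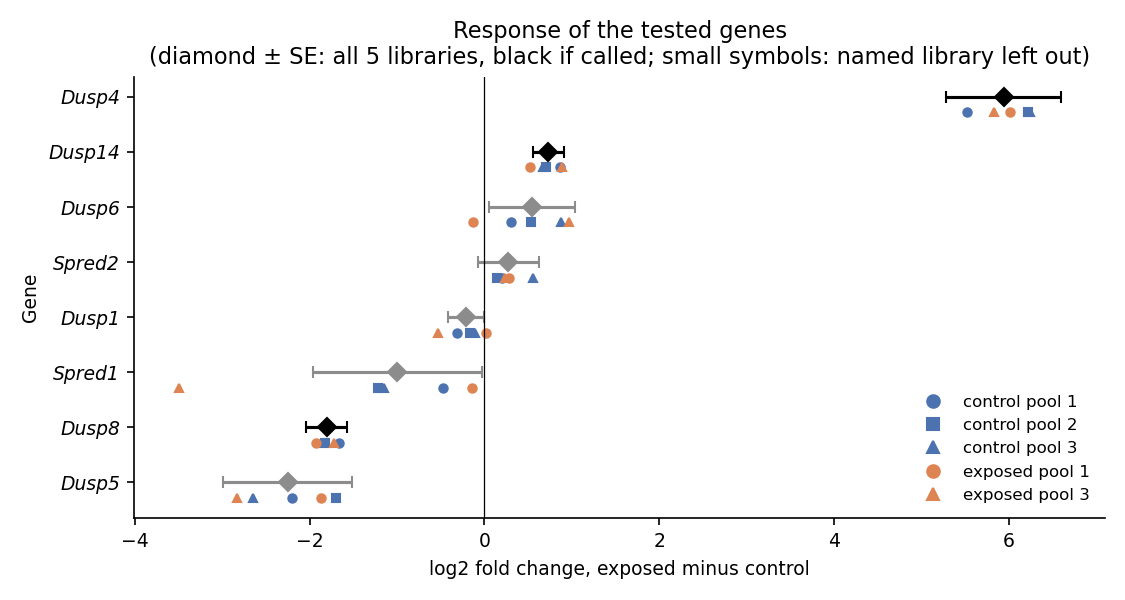
Log2 fold change of the 8 tested genes, exposed minus control, from all 5 libraries (diamonds with SE, black where called) and after omission of 1 library at a time (small symbols below, which name the omitted library). *Dusp4* stays between 5.52 and 6.24 and *Dusp8* between -1.93 and -1.67, whereas *Spred1* ranges from -3.50 to -0.14 and *Dusp6* and *Dusp1* lie on both sides of 0.

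Grouped by place in the cell and by kinase, a grouping made after the values were seen and not tested, the phosphatases showed different balances. *Dusp1*, which also acts on JNK and p38, and *Dusp4*, which also acts on JNK, were counted in the nuclear class only. *Dusp14* was in no class. The JNK and p38 class thus does not hold every phosphatase of these kinases. *Dusp1* alone exceeded the sum of that class in every library. It had 259, 363 and 368 TPM after DMSO and 200 and 308 TPM after acetophenone, with overlap. The nuclear inducible class (*Dusp1*, *Dusp4* and *Dusp5* with *Dusp2*) summed to 364, 507 and 397 TPM after DMSO and to 325 and 468 TPM after acetophenone. These sums overlapped between conditions, since the higher *Dusp4* of the exposed pools came with lower values of *Dusp5* and, in exposed pool 1, of *Dusp1*. The cytoplasmic ERK class (*Dusp6* with *Dusp7* and *Dusp9*) summed to between 13.1 and 20.7 TPM after DMSO and to 24.1 and 12.3 TPM after acetophenone, and overlapped as well. The JNK and p38 class (*Dusp8* with *Dusp10* and *Dusp16*) summed to 84.7, 82.1 and 75.2 TPM after DMSO and 28.4 and 24.5 TPM after acetophenone, without overlap, and *Dusp8* made up most of it in every library.

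The promoter sequences of 8 of the 10 genes were searched for elements through which cAMP, calcium and ERK act on transcription, and those of *Dusp4* and *Spry4* were not searched. These were the cAMP response element bound by CREB, TGACGTCA, which reads the same on both strands, and the CArG box bound by serum response factor. Windows ran from 250 bases before to 50 after the start site in RefSeq for GRCm38.p6, and each site found is shown in 30 bases with the motif in capitals, 5′ to 3′ on the strand of the gene.
Dusp8, 107 bases before the start: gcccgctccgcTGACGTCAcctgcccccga
Dusp8, 63 bases before the start: ttggctgcaggTGACGTCAggggctttttc
Dusp1, 143 bases before the start: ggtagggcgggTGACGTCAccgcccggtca
Dusp5, CArG boxes 82 and 72 bases before the start: aatacCCATATTTGGCCTTATATGGgcact

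The *Dusp8* windows lie at chr7:142095373-142095402 and chr7:142095329-142095358, that of *Dusp1* at chr17:26508597-26508626 and that of *Dusp5* at chr19:53529058-53529087, all outside annotated exons. The response element was present in 1.79% of the 32851 promoter windows of the table, and 2 or more copies, as in *Dusp8*, in 0.0396%. A CArG box was present in 1.63% of windows, and 2 or more, as in the adjoining pair of *Dusp5*, in 0.0183%. No match was found in the windows of *Dusp6*, *Dusp14*, *Spry2*, *Spred1* and *Spred2*. For *Spred1*, the start site used lay 303 bases from the nearest start annotated in GENCODE, which its window did not reach. A match describes letters in a window and was not related to binding by any measurement here.

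Relatives of the 10 genes gave no call. Of 22 further Dusp, Sprouty and Spred genes, 21 were in the tables and 9 were tested, with a median log2 fold change of 0.06 against -0.03 over all genes tested, and 0 were called (lowest adjusted p = 0.241). *Dusp26*, a neuronal atypical phosphatase, had 78.9, 122 and 33.1 CPM after DMSO and 34.0 and 11.3 CPM after acetophenone (log2 fold change -1.78, SE 0.69). *Dusp18* and *Dusp28*, also atypical family members, had log2 fold changes of 0.66 and -0.16. Like *Dusp5*, *Dusp26* had its lowest control value in pool 3.

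Upstream, 21 of 25 genes of the cascade from Ras to ERK were tested, with 1 call, higher in the exposed pools, a share near the 3.41% of all genes tested. This was *Ksr2*, a scaffold that holds Raf, MEK and ERK together, with 71.7, 88.9 and 72.8 CPM after DMSO and 201 and 176 CPM after acetophenone (log2 fold change 1.28, SE 0.18, adjusted p = 0.0172). *Map2k2* (MEK2) and *Mapk3* (ERK1) were not called (log2 fold changes -0.28 and 0.17), and the median of the list was 0.01. Of 22 receptor tyrosine kinases and adaptors, 7 were tested and 1 was called higher, against 3.41% of all genes. It was *Fgfr1*, a receptor whose signal Sprouty proteins limit, with 3, 8 and 23 counts after DMSO and 175 and 197 after acetophenone (log2 fold change 4.16, SE 0.90, adjusted p = 0.0698). *Fgfr1* passed the filter through the exposed pools only, so that this count is no support for a difference of the list. *Igf1r*, *Insr* and *Frs3* of that list were not called (log2 fold changes 0.33, -0.17 and 0.05). Of 20 other brakes on Ras and MAP kinases 15 were tested and 0 were called (median -0.02, lowest adjusted p = 0.18), *Spop*, *Ptprr* and *Errfi1* being among them. Over all genes, unadjusted p-values under 0.05 numbered 928 higher and 996 lower.

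The list of JNK, p38 and ERK5 kinases had 20 of 24 genes tested and 3 called higher, against 3.41% of all genes. Its median log2 fold change was 0.28. Of these branches, *Dusp8* acts on those of JNK and p38. *Map2k3*, an activating kinase of p38, went from 22.4, 15.0 and 14.8 CPM to 58.3 and 55.1 CPM (log2 fold change 1.70, SE 0.29, adjusted p = 0.0346). *Mapk11*, the beta form of p38, went from 31.0, 25.4 and 31.0 CPM to 55.4 and 66.8 CPM (1.07, SE 0.24, adjusted p = 0.0778). *Map3k2*, a kinase at the head of the ERK5 and JNK branches, went from 12.5, 14.5 and 14.3 CPM to 43.6 and 31.0 CPM (1.44, SE 0.30, adjusted p = 0.0608). Of the 20 genes, 9 had both exposed pools above every control pool and 5 had both below, *Mapk8ip2* among the latter, while 40.0% of all genes tested lay outside the control range. *Mapk10* (JNK3) and the JNK scaffolds *Mapk8ip1* and *Mapk8ip2*, the most abundant genes of the list, were not called, with log2 fold changes of 0.24, 0.03 and -0.33.

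Downstream, 13 of 19 ERK effectors were tested and 2 were called higher, against 3.41% of all genes, with a median log2 fold change of -0.05. Both are Ets transcription factors of the PEA3 group, which growth factor signalling through ERK induces together with Dusp and Sprouty genes. *Etv4* went from 63, 30 and 34 counts after DMSO to 1121 and 559 after acetophenone (log2 fold change 4.41, SE 0.60, adjusted p = 0.0155), entering the test, like *Dusp4*, through the exposed pools only. Of the 13 effectors tested, 3 entered in this way, so that the count of calls is no support for a difference of the list. *Etv5* went from 72.7, 90.6 and 97.8 CPM to 159 and 160.0 CPM (0.87, SE 0.19, adjusted p = 0.0686). *Rps6ka4*, *Rps6ka6* and *Elk4* were not called.

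Among 28 target genes that respond to ERK, 14 were tested and 5 were called higher, against 3.41% of all genes, with a median log2 fold change of 1.59. Of the 14 genes, 5 had passed the filter through the exposed pools only, where they are high, the called *Fosl2* and *Vgf* among them, so that this median and count are no support for a difference of the list. *Egr1*, the immediate early transcription factor, had 170, 113 and 118 CPM after DMSO and 484 and 265 CPM after acetophenone (log2 fold change 1.49, SE 0.30, adjusted p = 0.0581). *Fosl2*, *Junb*, *Klf10* and *Vgf* were called with log2 fold changes of 2.98, 1.65, 1.6 and 7.92, whereas *Fos*, with 0.90, was not (adjusted p = 0.109). Exposed pool 1 exceeded exposed pool 3 in *Egr1*, *Junb*, *Klf10* and *Vgf*, as in *Dusp14*, whereas *Fosl2*, with 7.53 and 9.29 CPM, was higher in exposed pool 3, as was *Dusp4*. The 15 genes that tissue dissociation is known to raise, some of which are in the same list, summed to 1651, 1577 and 1575 CPM after DMSO and to 4563 and 3184 CPM after acetophenone. Of these 15, 4 were called higher, against 3.41% of all genes, *Nr4a1* and *Socs3* among them (log2 fold changes 4.37 and 3.53). *Socs3* was 1 of 2 genes of this list that passed the filter through the exposed pools only, so that the count of calls is no support for a difference of the list. Much of the sum in the exposed pools, but little of it in the control pools, came from *Nr4a1*. This gene had 69.9, 61.3 and 92.9 CPM after DMSO and 1776 and 1309 CPM after acetophenone. Of the 15 genes, 10 lay above and 2 below the control range, while 40.0% of all genes tested lay outside it. *Jun*, which lay below it, was not called (log2 fold change -0.52, adjusted p = 0.142). Cells of both conditions were dissociated, and the part of dissociation in these values was not tested.

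**Figure D4:**
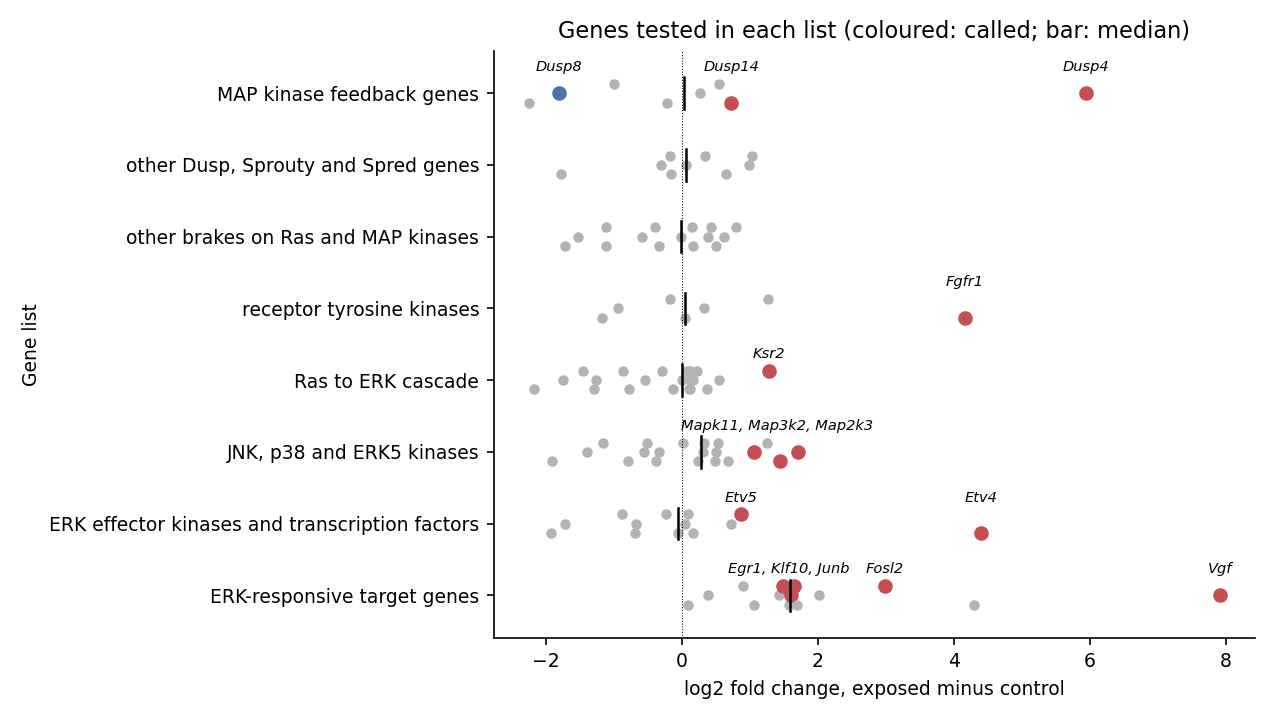
Log2 fold change, exposed minus control, of each tested gene in the MAP kinase feedback list and in 7 further lists of the pathway; coloured points are called (red higher, blue lower) and named, grey points are not called, and vertical bars are list medians. The medians lie between -0.05 and 1.59, the last that of the ERK-responsive target genes, 5 of which passed the filter through the exposed pools only, and among these lists a call in the lower direction is seen only for *Dusp8*.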

How the data were processed

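The 5 libraries of sorted *Olfr151* neurons were analysed, grouped by the labels. Reads of 50 bases came from SMARTer cDNA (12 PCR cycles) and Nextera XT libraries. The authors mapped them with STAR 2.7.0a on GRCm38 and deposited raw counts per gene from featureCounts 1.6.3, which sums reads on exons without strand and without multi-mapping reads; DESeq2 1.30.1 in R 4.0.3 was their test. Genes were named from GENCODE (55144 of 55411); 92 spike-in RNAs and 1 reporter were kept out of library sizes and tests.

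Counts were tested in R 4.3.3 with edgeR 4.0.16 (TMM, robust glmQLFit, glmQLFTest), with condition as the only factor. The threshold of 142 counts lies where the distribution of log2(count + 1) dips between low and high counts. SE was taken as the log2 fold change over the square root of F. TPM were computed from counts and deposited exon lengths, CPM from TMM-scaled gene totals, with Python 3.11.15 and pandas 2.3.3.

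The alternatives were DESeq2 1.42.0, its size factors, ERCC spike-in scaling, 2 other filters, an adjusted p of 0.05, glmTreat, no robust estimation, the pool number as a block and each library left out. Leaving out both libraries highest in immune markers was chosen after the data were seen. On simulated counts for 10035 genes, the calls of exposed against control pools found 22% of genes with a 2-fold change, 64% at 4-fold, 86% at 8-fold and 96% at 16-fold, with 12 false calls.

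The 10 genes and the other lists (240 genes, 239 matched) were chosen with earlier results of these data known. All 10 are named. Of each other list the text names every called gene, up to the 6 with the lowest adjusted p, and up to 3 further tested genes of highest mean TPM; of marker lists it names those that define the type. Some genes within this rule are not reported here. *Dusp2*, *Dusp7*, *Dusp9*, *Dusp10*, *Dusp16* and AC137853.2 fall outside this rule and were chosen after their values were seen. With 2 exposed pools, the spread of that condition rests on 1 difference per gene. The limit of 3 counts covers counting error only.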

Additional observations from a re-analysis of the deposited data

How the results depend on the processing

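*Dusp4* was called in 14 of 15 alternatives and *Dusp8* in 11 of 15, each with its direction kept throughout, whereas *Dusp14* was called in 5 of 15. Against 342 genes called higher and 186 lower, DESeq2 called 725 and 768, spike-in scaling 93 and 48, a filter of 10 counts in 2 libraries 162 and 74, an adjusted p under 0.05 190 and 91, and glmTreat 146 and 55. Leaving out 1 library gave 93 to 353 and 19 to 436. Spike-in scaling moved the median over all genes from -0.03 to -0.23, on the log2 scale, and under it *Dusp8* (log2 fold change -2.0, adjusted p = 0.378) and *Dusp14* (0.52) were not called. Of the 10 genes, the number called higher was 1 under spike-in scaling, the filter of 10 counts, an adjusted p under 0.05, glmTreat, and without both libraries highest in immune markers. The number called lower was 2 with DESeq2, which added *Dusp5* (adjusted p = 0.00854), and 0 with spike-in scaling. Leaving out 1 library gave 1 to 2 higher and 0 to 2 lower. Without both libraries highest in immune markers *Dusp6* turned to -0.37 and *Spred1* to 0.38. With 1 library left out *Dusp1* lay between -0.53 and 0.023 and *Dusp6* between -0.14 and 0.97.

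Pool numbers are shared between conditions, but no label ties a pool to a day, and deviations from the group means of same-numbered pools correlated at 0.056 (pools 1) and -0.080 (pools 3). With the pool number as a block, 11 genes were called higher and 1 lower, and of the 10 genes 0 were called in either direction (*Dusp4* log2 fold change 6.53, adjusted p = 0.153; *Dusp8* adjusted p = 0.149; *Dusp14* adjusted p = 0.187); all 7 further lists had 0 calls under this block.

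Calls in the further lists were as follows. With DESeq2 there were 1 among other Dusp, Sprouty and Spred genes, 6 in the Ras to ERK cascade, 5 in JNK, p38 and ERK5 kinases, 1 among other brakes, 5 among ERK effectors, 11 among ERK-responsive targets and 2 among receptor tyrosine kinases. Spike-in scaling left 0 in the Ras to ERK cascade, 0 in JNK, p38 and ERK5 kinases, 1 among effectors and 2 among targets. The filter of 10 counts left 1 in JNK, p38 and ERK5 kinases, 1 among effectors, 0 among targets and 0 among receptors, and no filter left 3 and 0 in the last 2 lists. An adjusted p under 0.05 left 1, 1, 1 and 0 in these 4 lists, and glmTreat left 1, 1, 2 and 0. Leaving out 1 library gave 0 to 1 among other Dusp genes, other brakes and receptors, 0 to 3 in the cascade, 0 to 2 in JNK, p38 and ERK5 kinases, 0 to 4 among effectors and 0 to 7 among targets. The cause of these changes was not tested.

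With 1 exposed library left, it was assumed to vary like the control pools. *Spry2* and *Spry4* were tested only under looser filters and in some fits with libraries left out. With 10 counts in 2 libraries their log2 fold changes were 1.07 (SE 1.09, adjusted p = 0.772) and 3.03 (SE 2.60, adjusted p = 0.712) in edgeR. In simulated data for these 5 libraries, 2-fold changes were mostly missed.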
